A study of Canis lupus familiaris with 222 samples.

Results

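Simple mammary tumors of female dogs were compared by diagnosis: 63 simple carcinomas against 14 simple adenomas. The members were all tumor libraries whose histology group in the study's clinical table was simple carcinoma or simple adenoma, 77 of the 158 canine mammary tumors (CMTs) with RNA-seq. The whole series held 222 libraries, 64 of them from normal mammary tissue next to a tumor. Each library came from surgically removed tissue of a single dog, and poly(A) RNA was sequenced. The submitters deposited FPKM values, in which a gene's fragments are divided by transcript length and by how many fragments that library mapped.

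A simple tumor of the canine mammary gland grows from a single epithelial lineage, whereas a complex tumor also holds proliferating myoepithelium. A simple adenoma is benign and well differentiated. A simple carcinoma is malignant, and its grade is scored from the loss of tubules, the irregularity of the nuclei and the number of mitoses. Solid growth without lumina therefore adds to the score, without fixing the grade. Adenoma and grade 1 carcinoma stand next to each other on this scale, and the study's methods list their separation among the ambiguous diagnoses.

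The simple adenomas came from dogs aged 9 to 16 years (median 11, with an age given for 13 of 14), of which 11 were intact and 3 neutered. The simple carcinomas came from dogs aged 2 to 19 years (median 13, with an age given for 58 of 63), of which 33 were intact, 27 were neutered and 3 had no status that applied. Among the carcinomas, 30 were grade 1, 13 were grade 2 and 20 were grade 3. The dogs were of 6 breeds among the adenomas and 14 among the carcinomas, with Maltese the commonest in both, at 6 and 14 dogs. For 4 of these simple tumors the sources disagreed. The sample labels call them simple adenoma, while the clinical table calls them grade 1 tubulopapillary carcinoma, and they were counted as carcinomas.

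The clinical records of the same tumors also varied with grade, and are given as a description. All 14 adenomas were positive for the estrogen receptor (ER), as were 29 of 30 grade 1, 9 of 13 grade 2 and 11 of 20 grade 3 carcinomas. The Allred score, which combines the share and the strength of ER staining, had a median of 8 in adenomas (range 3 to 8), 7.5 in grade 1, 6 in grade 2 and 3 in grade 3 carcinomas (range 2 to 8 in each grade). The study's expression-based class was non-basal for all 14 adenomas, and basal for 2 of 30 grade 1, 4 of 13 grade 2 and 15 of 20 grade 3 carcinomas. Lymphatic invasion, meaning tumor cells in nearby lymphatic vessels or, where nodes were available, in regional lymph nodes, was recorded in 13 of 20 grade 3 carcinomas, 1 of 13 grade 2 carcinomas, 0 of 30 grade 1 carcinomas and 0 of 14 adenomas. Of the study's expression clusters (NMF1 to NMF5), NMF1 held 9 adenomas and 39 carcinomas, NMF2 held 1 and 17, NMF3 held 0 and 4, NMF4 held 1 and 3, and NMF5 held 3 adenomas and 0 carcinomas. The basal class and the clusters were derived from these same RNA values, so they describe the groups and are not independent of the expression results.

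Depth overlapped between the groups. Adenoma libraries had 60522827 to 91889380 mapped reads and carcinoma libraries 52159703 to 147634076, with medians of 66859712 and 68627577. Mapping rates were 89.03% to 92.37% in adenomas and 66.63% to 93.08% in carcinomas, of which 6 were under 88%. A pair of grade 1 carcinomas stood far from all other tumors on the first principal component, with mapping rates of 86.14% and 66.63%. The counts for all carcinomas and for each grade are also given without them. The number of reads behind a single value is unknown. The table lists 24580 Ensembl identifiers and pairs none of them with a gene name, so results are given by identifier, and the tissue labels could not be checked against marker genes.

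The first question was whether any gene separates simple carcinoma as a whole from simple adenoma. None was called. Values were compared as log2(FPKM + 1) with limma for the 14496 identifiers whose FPKM averaged 0.5 or more, two-sided, and an identifier was called at a Benjamini-Hochberg adjusted p under 0.05 together with a difference of at least 1 on the log2 scale. By this rule 0 identifiers were called (0%), 0 passed the adjusted p at any size of difference, and the smallest adjusted p was 0.136. At an unadjusted p under 0.05 there were 1554 identifiers (10.7%), of which 826 were higher and 728 lower in carcinoma. A Wilcoxon rank test with the same size threshold also called 0, with 2038 identifiers under an unadjusted p of 0.05. Without the 2 distant grade 1 libraries the count was 0, and without the 6 libraries with low mapping rates it was 0.

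The precision of the comparison is given by its intervals. The 95% interval of the carcinoma minus adenoma difference had a median half-width of 0.36 on the log2 scale. For 13022 identifiers (89.8%) the whole interval lay within 1 log2 unit of 0. Since 1 FPKM is added before the logarithm, differences on this scale understate the change of identifiers with low FPKM, so the interval does not bound their fold change in FPKM. Only 0.890% had an estimated difference of 1 log2 unit or more in either direction. Leaving out 1 adenoma at a time gave 0 to 2 calls, with 2 lower in carcinoma without simple adenoma replicate 5. Within dogs operated on in 2016 (14 carcinomas, 5 adenomas) and in 2018 (6 and 3) there were 0 calls, and within 2017 (43 and 6) there were 3, all lower in carcinoma.

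Split by grade, the carcinomas did not stand at one distance from adenoma. In a single fit with 4 groups, grade 1 carcinoma against adenoma gave 0 calls (0%) and 663 identifiers (4.57%) under an unadjusted p of 0.05. Grade 2 carcinoma gave 0 calls (0%) and 979 identifiers (6.75%) under an unadjusted p of 0.05. Grade 3 carcinoma gave 571 calls (3.94%), of which 245 were higher (1.69%) and 326 lower (2.25%) than in adenoma. For grade 3, 3711 identifiers (25.6%) were under an unadjusted p of 0.05, and a Wilcoxon rank test with the same size threshold called 533. The 3 contrasts share the 14 adenomas.

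**Figure D1:**
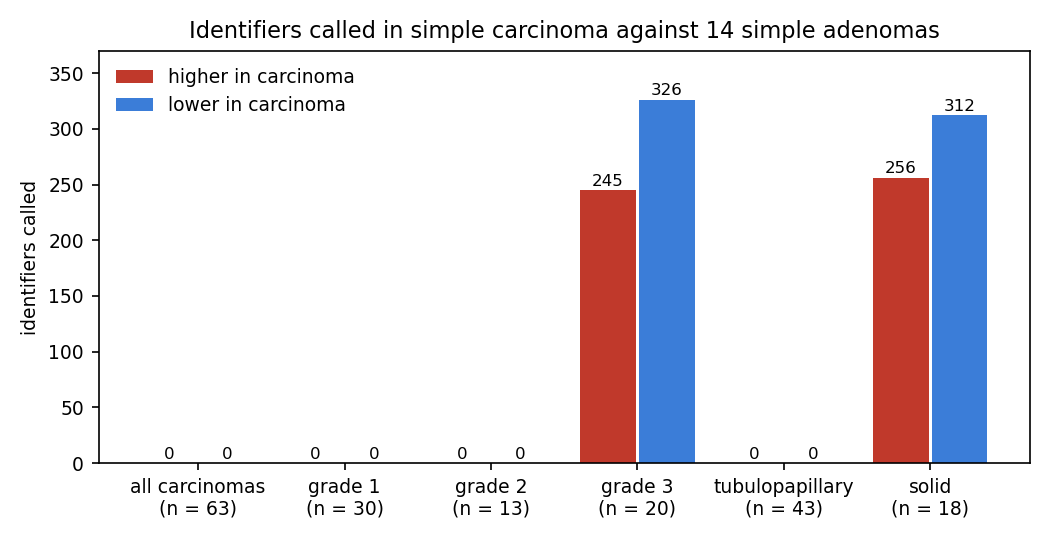
Number of Ensembl identifiers called higher (red) or lower (blue) in simple carcinoma than in 14 simple adenomas, for all carcinomas, each grade and each growth pattern (n, carcinomas in the contrast). Counts are 0 except for grade 3 (245 higher, 326 lower) and solid carcinoma (256 higher, 312 lower).

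Grade 1 carcinoma and adenoma were compared with narrower intervals than the other grades, with a median half-width of 0.38 on the log2 scale against 0.46 for grade 2 and 0.41 for grade 3. The fit shares its variance estimate among the groups, so these widths follow the number of tumors. They do not measure how alike the tumors of a grade are. For grade 1, 91.3% of identifiers had their whole 95% interval within 1 log2 unit of 0, against 82.8% for grade 2 and 77.3% for grade 3. The grade 1 count was 0 with the 4 tumors of disputed diagnosis left out, and 0 with them moved to the adenomas. The difference between grades was tested directly: grade 3 against grade 1 carcinoma gave 432 calls (2.98%), 182 higher (1.26%) and 250 lower (1.72%) in grade 3, with 3757 (25.9%) under an unadjusted p of 0.05. Grade 3 and grade 1 carcinoma thus differed beyond the spread between tumors, while no identifier passed the same test between grade 1 carcinoma and adenoma.

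The grade 3 count depended on which tumors entered. Among non-basal tumors, with 5 grade 3 carcinomas left, limma called 0 and placed 768 identifiers under an unadjusted p of 0.05. Among ER-positive tumors, with 11 grade 3 carcinomas left, there were 290 calls (173 higher, 117 lower), and among tumors without lymphatic invasion, with 7 left, there were 379 (173 higher, 206 lower). Within surgery year 2016 (3 grade 3 carcinomas, 5 adenomas) there were 163 calls, 102 higher and 61 lower, and within 2017 (16 and 6) there were 146, 41 higher and 105 lower, so the direction held by more identifiers differed between the years. In 2018 only 1 grade 3 carcinoma was sampled, too few for a comparison. With surgery year as a covariate there were 664 calls, with mapping rate as a covariate 564, and without the 2 distant libraries 586. Leaving out 1 adenoma at a time gave 506 to 604. The part of basal class or of tumor number in the drop to 0 was not tested.

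By growth pattern, the 43 tubulopapillary carcinomas gave 0 calls against adenoma (0%), with 646 identifiers (4.46%) under an unadjusted p of 0.05. The 18 solid carcinomas gave 568 calls (3.92%), 256 higher (1.77%) and 312 lower (2.15%), with 3627 (25%) under an unadjusted p of 0.05. Of the solid carcinomas 17 were grade 3 and 1 was grade 2, while 29 tubulopapillary carcinomas were grade 1, 12 were grade 2 and 2 were grade 3. Solid growth and grade 3 therefore cannot be told apart in these tumors.

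As whole profiles, carcinomas were spread more widely than adenomas. The mean Euclidean distance of a tumor to the mean of the other tumors of its diagnosis, over log2(FPKM + 1) of 14496 identifiers, was 95.03 ± 23.3 in carcinomas (SD, n = 63) and 78.93 ± 19.14 in adenomas (SD, n = 14). The difference of 16.1 had a two-sided permutation p of 0.0182, and without the 2 distant grade 1 libraries it was 12.9 (p = 0.0169). The carcinoma mean pools all grades, so these distances also hold differences between grades. The permutation shuffled the tumors' distances between diagnoses and does not set those differences apart. Spread within a grade was not tested. Diagnosis accounted for 2.06% of the variance between tumors, with a one-sided permutation p of 0.0544. With each library scaled to the same upper quartile this share was 2.19% (permutation p = 0.032), and without the 2 distant libraries it was 2.18% (permutation p = 0.0324), so its side of the 0.05 threshold depended on the scaling and on these libraries.

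Distances to adenoma were measured for each grade, as a description. The median distance of a tumor to the adenoma mean was 74.65 for the adenomas themselves (each against the other 13, range 57.03 to 127.1), 84.58 for grade 1 (59.47 to 204.5), 88.09 for grade 2 (70.35 to 115.8) and 109.1 for grade 3 carcinomas (83.48 to 155.1). The ranges overlapped in every pair of classes. On the second principal component, which held 9.28% of the variance, the medians were -21.96 in adenomas, -16.05 in grade 1, 5.914 in grade 2 and 33.51 in grade 3 carcinomas. Only the first component was larger, at 18.9%, and its medians lay between -10.41 and -6.008 in all 4 classes.

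**Figure D2:**
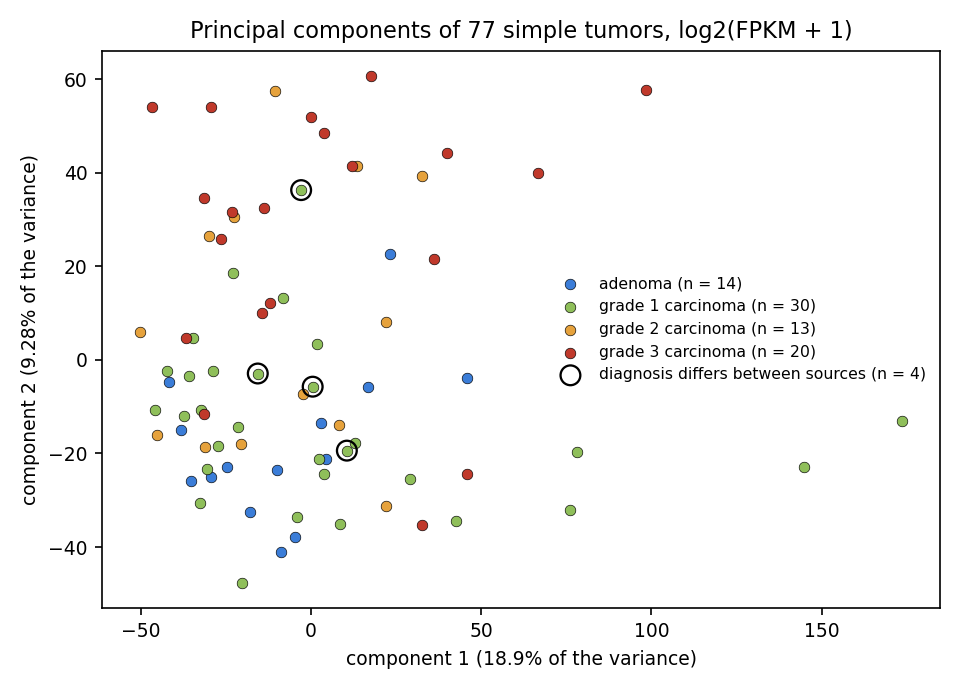
Each point is a tumor, placed by its scores on principal components 1 (18.9% of the variance) and 2 (9.28%) of log2(FPKM + 1), and colored by class. Black rings mark the 4 tumors whose diagnosis differs between sources. Adenomas lie between -41.11 and 22.63 on component 2, among the grade 1 carcinomas, and most grade 3 carcinomas lie above them.

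The tumor most like each adenoma, by Pearson correlation over the same identifiers, was another adenoma for 9 of 14, a grade 1 carcinoma for 4, a grade 2 carcinoma for 1 and a grade 3 carcinoma for 0. Adenomas made up 17.1% of the tumors an adenoma could be paired with. Among grade 1 carcinomas the most similar tumor was an adenoma for 7 of 30, grade 1 for 20 and grade 2 for 3. Of the tumors a grade 1 carcinoma could be paired with, 18.4% were adenomas and 38.2% were grade 1. Among grade 2 carcinomas it was an adenoma for 4 of 13, grade 1 for 8 and grade 3 for 1. Among grade 3 carcinomas it was an adenoma for 0 of 20, grade 1 for 5, grade 2 for 6 and grade 3 for 9. For a grade 2 or a grade 3 carcinoma, 18.4% of the other tumors were adenomas and 39.5% were grade 1. These counts are a description of the tumors, with no test.

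The 571 identifiers called in grade 3 were then followed through the other groups. They were chosen by the grade 3 contrast, so their grade 3 values are a description. The 245 higher identifiers had a median difference of 1.29 on the log2 scale (21 of them at least 2, 1 at least 3), and the 326 lower identifiers one of -1.32 (69 at least 2 in size, 16 at least 3). The smallest called size was 1.001 in each direction. The typical higher identifier went from a mean of 3.27 FPKM in adenomas to 12.9 FPKM in grade 3 carcinomas, and the typical lower identifier from 14.7 to 5.01 FPKM, as medians over the identifiers. In RNA from whole tissue, fewer cells of a type and less RNA per cell cannot be told apart.

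None of these identifiers separated the classes completely. For the typical higher identifier, 55% of grade 3 carcinomas lay above every adenoma, against 30.8% of grade 2 and 10% of grade 1 carcinomas. For the typical lower identifier, 50% of grade 3 carcinomas lay below every adenoma, against 23.1% of grade 2 and 10% of grade 1. For 0 of the 571 identifiers did all 20 grade 3 carcinomas lie beyond every adenoma, and for 2 higher and 24 lower identifiers no grade 3 carcinoma did. In grade 1 the same identifiers had a median difference from adenoma of 0.26 (higher) and -0.26 (lower), and in grade 2 of 0.74 and -0.59, beside medians of -0.05 and 0.04 over all 14496 identifiers. These contrasts share their adenomas with the one that chose the identifiers.

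Averaged within each tumor, the 245 higher identifiers had a mean log2(FPKM + 1) of 1.844 to 2.784 in adenomas (median 2.17), 1.845 to 3.144 in grade 1 (median 2.50), 1.971 to 3.613 in grade 2 (median 3.09) and 2.232 to 4.471 in grade 3 carcinomas (median 3.64). The mean lay above every adenoma in 9 of 30 grade 1, 9 of 13 grade 2 and 17 of 20 grade 3 carcinomas. The 326 lower identifiers had a mean of 3.207 to 4.470 in adenomas (median 3.87), 2.288 to 4.193 in grade 1 (median 3.73), 2.118 to 4.109 in grade 2 (median 3.52) and 1.324 to 3.485 in grade 3 carcinomas (median 2.20). The mean lay below every adenoma in 8 of 30 grade 1, 6 of 13 grade 2 and 19 of 20 grade 3 carcinomas. Both held together in 4 grade 1, 6 grade 2 and 17 grade 3 carcinomas, so 3 grade 3 carcinomas stayed within the adenoma range on at least one of the lists, and some lower-grade tumors left it on both.

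**Figure D3:**
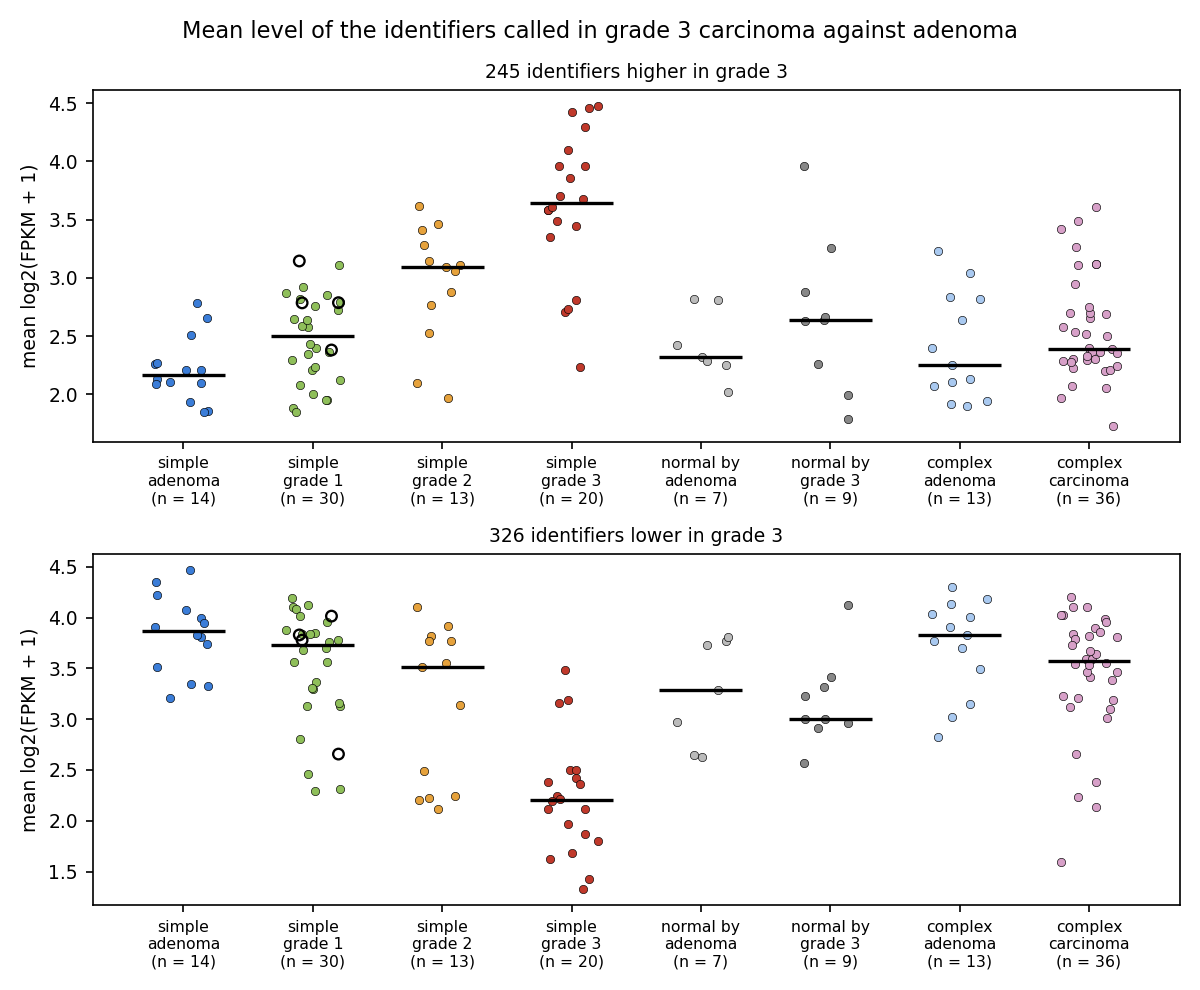
Mean log2(FPKM + 1) per library over the 245 identifiers higher (top) and the 326 lower (bottom) in grade 3 simple carcinoma than in simple adenoma. Points are libraries, bars are group medians, and open circles are the 4 simple tumors with differing diagnoses. Simple grade 3 has medians of 3.64 and 2.20 against 2.17 and 3.87 in simple adenoma, and the normal tissues and complex tumors overlap the simple adenomas in both panels.

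Of the 4 tumors with differing diagnoses, the most similar tumor was a grade 1 carcinoma for 2, a grade 2 carcinoma for 1 and an adenoma for 1. Their means over the higher identifiers were 2.38, 2.785, 2.786 and 3.144, against a highest adenoma of 2.784. Over the lower identifiers they were 2.657, 3.778, 3.830 and 4.015, and only the first lay below the lowest adenoma, at 3.207. They were thus not alike, and lay both within and outside the range of the adenomas, with 2.785 and 2.786 barely above its upper end. The lists were chosen by grade 3 against these same adenomas, a contrast without these 4 tumors. The adenoma range is therefore not independent of that choice.

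Dogs with both tissues gave a check on each dog's own background: 7 with an adenoma and 21 with a carcinoma, 7 of them grade 1, 5 grade 2 and 9 grade 3. The tumor minus normal difference was fitted per dog with limma over 14653 identifiers. Between carcinoma dogs and adenoma dogs this difference gave 0 calls (0%), with 822 identifiers (5.61%) under an unadjusted p of 0.05 and a median half-width of 0.56 on the log2 scale. Against their own normal tissue, adenomas gave 11 calls (0.0751%), of which 6 were higher (0.0409%) and 5 lower (0.0341%) in the tumor, with 2605 identifiers (17.8%) under an unadjusted p of 0.05. Carcinomas gave 676 (4.61%), of which 153 were higher (1.04%) and 523 lower (3.57%), with 5077 (34.6%) under an unadjusted p of 0.05. The adenoma count was 3 without the pairing of tissues by dog and 1 with no filter on low values, and it comes from fewer dogs than the carcinoma count.

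Split by grade in a fit added after the data were seen, adenomas gave 23 calls against own normal tissue (0.157%), grade 1 carcinomas 1 (0.00682%), grade 2 carcinomas 8 (0.0546%) and grade 3 carcinomas 454 (3.1%). The 326 identifiers that were lower in grade 3 carcinoma than in adenoma had a median tumor minus normal difference of 0.63 in adenomas, 0.13 in grade 1, 0.24 in grade 2 and -0.83 in grade 3 carcinomas, beside medians from -0.01 to 0.09 over all identifiers. The 245 higher identifiers had medians of 0.12, 0.12, -0.08 and 1.02. Adenomas thus stood above their own normal tissue on the lower identifiers, as a median, and grade 3 carcinomas below theirs. These dogs' tumors are among those that chose the identifiers.

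No identifier was called between normal tissues by the diagnosis of the tumor beside them. Normal tissue beside carcinoma (n = 21) against normal tissue beside adenoma (n = 7) gave 0 calls by limma over 14558 identifiers (0%), with 201 (1.38%) under an unadjusted p of 0.05 and a median half-width of 0.45. The 245 higher identifiers had a median difference of 0.20 in normal tissue, beside 0.04 over all identifiers, and the 326 lower identifiers one of 0.02. By mean level over the higher identifiers, normal tissue ranged from 2.021 to 2.819 beside adenomas and from 1.786 to 3.958 beside grade 3 carcinomas.

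Complex tumors, from other dogs, gave a second comparison of carcinoma with adenoma. The ages, breeds and neuter status of those dogs are not given here and did not enter the fit. The 36 complex carcinomas against 13 complex adenomas gave 0 calls by limma over 14551 identifiers (0%), with 1098 (7.55%) under an unadjusted p of 0.05. Here too the diagnosis came from the clinical table. Some of these complex carcinomas are called complex adenoma by the sample labels. A labeled complex adenoma with no line in the clinical table was left out. Whether the carcinoma minus adenoma difference was unlike in simple and complex tumors was tested as an interaction, which gave 0 calls (0%), 1207 identifiers (8.29%) under an unadjusted p of 0.05 and a smallest adjusted p of 0.588. The 245 higher identifiers had a median difference of 0.15 in complex tumors and the 326 lower ones a median of -0.20, beside 0.05 over all identifiers. Only 3 complex carcinomas were grade 3, against 20 simple ones.

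In grade 3 carcinoma, 4 identifiers show the range of patterns: in each direction the one with the largest difference from adenoma and the one with the smallest adjusted p, with a mean of at least 5 FPKM in the higher group. ENSCAFG00000023449 had the largest difference among the higher identifiers. It ranged from 0.0622 to 13.1 FPKM in adenomas (median 1.95), from 0.0563 to 192.7 in grade 1 (median 6.02), from 0.226 to 47.2 in grade 2 (median 6.62) and from 1.19 to 1178 in grade 3 carcinomas (median 15.4). A subset of grade 3 tumors was very high: 8 of 20 reached 100 FPKM, as did 1 of 30 grade 1 and 0 of 13 grade 2 carcinomas and 0 adenomas, while 9 grade 3 carcinomas stayed within the adenoma range. The grade 1 tumor at 192.7 FPKM is among those that the sample labels call simple adenoma, so these counts rest on the clinical table's diagnosis. With the tumors of disputed diagnosis moved to the adenomas, the grade 3 difference was 3.24 on the log2 scale (limma adjusted p = 0.000552). The grade 3 difference was 3.74 on the log2 scale (SE 0.719, limma adjusted p = 0.000172). The grade 1 minus adenoma difference was 1.16 (adjusted p = 0.978), with a 95% interval of -0.17 to 2.49, and the grade 3 minus grade 1 difference was 2.58 (adjusted p = 0.00137). The last contrast uses the same grade 3 carcinomas that chose the identifier.

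This identifier was also high in some normal tissue of the same dogs. Normal tissue beside grade 3 carcinomas held 0.487 to 577.5 FPKM of ENSCAFG00000023449 (median 14.3, n = 9), against 0.170 to 17.9 beside adenomas (median 3.07, n = 7). In the dogs with both tissues, 6 of 9 grade 3 carcinomas were above their own normal tissue, with a mean difference of 1.32 on the log2 scale (limma adjusted p = 0.27), so the tumor minus normal difference did not pass the test. The grade 3 difference from adenoma was 1.46 within 2016 (limma adjusted p = 0.535) and 3.93 within 2017 (adjusted p = 0.0474). It was 2.20 among non-basal tumors (adjusted p = 0.822). All these adenomas and grade 3 carcinomas are among the tumors that chose the identifier.

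ENSCAFG00000029379 had the smallest adjusted p among the higher identifiers, with a smaller and more even shift. It ranged from 4.17 to 13.7 FPKM in adenomas (median 6.91), from 4.45 to 21.2 in grade 1 (median 8.61), from 5.30 to 20.2 in grade 2 (median 11.7) and from 7.33 to 75.5 in grade 3 carcinomas (median 20.1). All 20 grade 3 carcinomas were above the adenoma median and 16 were above every adenoma. The grade 3 difference was 1.41 (SE 0.204, adjusted p = 3.85e-06), against 0.38 for grade 1 (adjusted p = 0.978) and 0.62 for grade 2 (adjusted p = 0.473). Grade 3 carcinomas were above their own normal tissue by 1.04 (limma adjusted p = 0.0292), in 7 of 9 dogs. In adenomas the same difference was 0.02, with 3 of 7 dogs higher. These dogs' tumors are among those that chose the identifier, so the tumor minus normal difference is not independent of that choice. Among non-basal tumors the grade 3 difference from adenoma was 0.49 (adjusted p = 0.944).

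**Figure D4:**
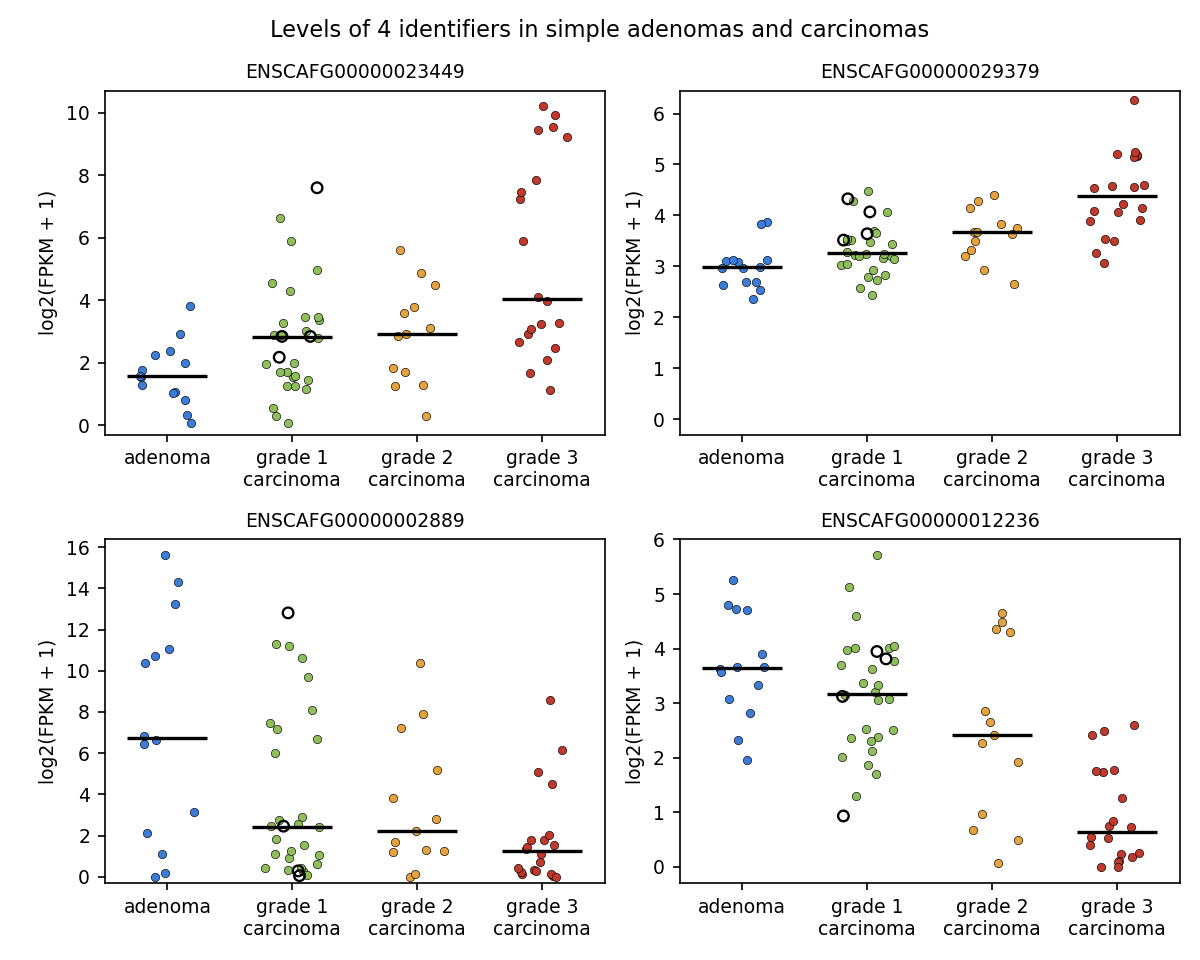
Level of each of the 4 identifiers, as log2(FPKM + 1), in 14 adenomas and 30 grade 1, 13 grade 2 and 20 grade 3 simple carcinomas. Points are tumors, bars are medians, and open circles are the 4 tumors with differing diagnoses. ENSCAFG00000012236 is below every adenoma in 17 of 20 grade 3 carcinomas, and ENSCAFG00000002889 in 0 of 20.

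ENSCAFG00000012236 had the smallest adjusted p among the lower identifiers. It ranged from 2.88 to 37.2 FPKM in adenomas (median 11.5), from 0.908 to 51.8 in grade 1 (median 8.04), from 0.0447 to 24.3 in grade 2 (median 4.36) and from 0 to 5.07 in grade 3 carcinomas (median 0.561). The grade 1 tumor at 0.908 FPKM is called simple adenoma by the sample labels. All 20 grade 3 carcinomas were below the adenoma median, 17 were below every adenoma and 13 were under 1 FPKM. Grade 2 was split, with 5 of 13 tumors below every adenoma, as were 4 of 30 grade 1 carcinomas. The grade 3 difference was -2.74 (SE 0.386, adjusted p = 3.85e-06), against -1.20 for grade 2 (adjusted p = 0.465) and -0.52 for grade 1 (adjusted p = 0.978).

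Set against their own normal tissue, adenomas were mostly above it for ENSCAFG00000012236 and grade 3 carcinomas mostly below. The difference was 1.13 in adenomas, with 6 of 7 dogs higher (limma adjusted p = 0.242), and -1.07 in grade 3 carcinomas, with 7 of 9 dogs lower (adjusted p = 0.115), so neither passed the test. Within 2016 the grade 3 difference from adenoma was -3.005 (adjusted p = 0.11), from 3 carcinomas and 5 adenomas. Within 2017 it was -2.595 (limma adjusted p = 0.0219), from 16 carcinomas and 6 adenomas. Among non-basal tumors it was -2.27 (adjusted p = 0.806). All these adenomas and grade 3 carcinomas are among the tumors that chose the identifier. The differences, also those from own normal tissue, are therefore not independent of that choice.

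ENSCAFG00000002889 had the largest difference among the lower identifiers, and a few adenomas were very high. It ranged from 0 to 49940 FPKM in adenomas (median 106.3), from 0.0459 to 7158 in grade 1 (median 4.38), from 0 to 1318 in grade 2 (median 3.70) and from 0 to 385.7 in grade 3 carcinomas (median 1.37). The grade 1 tumors at 0.0459 and at 7158 FPKM are both called simple adenoma by the sample labels. At least 1000 FPKM was reached by 6 of 14 adenomas, 4 of 30 grade 1, 1 of 13 grade 2 and 0 of 20 grade 3 carcinomas, and 1 adenoma was listed at 0. The 3 NMF5 adenomas were the 3 highest of the simple tumors, at 9704, 20130 and 49940 FPKM. In the last of these the identifier made up 6.51% of the library's summed FPKM. Complex adenomas reached 35890 FPKM.

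The grade 3 difference was -5.38 (SE 1.31, adjusted p = 0.00294). Without tumors of clusters NMF4 and NMF5 it was -3.45 (adjusted p = 0.0907), and within 2016 it was 0.03 (adjusted p = 1). Within 2017, with 16 grade 3 carcinomas and 6 adenomas, it was -8.77 (limma adjusted p = 0.00569). It was -5.07 among non-basal tumors (adjusted p = 0.879) and -5.48 among tumors without lymphatic invasion (adjusted p = 0.077). The groups overlapped fully at the low end, with 0 carcinomas of any grade below every adenoma. Normal tissue reached 37410 FPKM beside adenomas and 27750 FPKM beside grade 3 carcinomas. Adenomas differed from their own normal tissue by -0.20 (adjusted p = 0.959), with 5 of 7 dogs lower. All these adenomas and grade 3 carcinomas are among the tumors that chose the identifier.

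The identifiers whose levels followed these 4 most closely across the 77 tumors were counted as a description. For ENSCAFG00000002889 the 3 highest Pearson correlations lay between 0.902 and 0.96, for ENSCAFG00000029379 between 0.88 and 0.89, for ENSCAFG00000012236 between 0.853 and 0.886 and for ENSCAFG00000023449 between 0.653 and 0.663. The 3 closest identifiers were called in grade 3 for each of the first 3, and 0 of 3 were for ENSCAFG00000023449, beside 3.94% of all identifiers tested. For ENSCAFG00000023449 all 3 differed from adenoma in the same direction as it did. Since they were picked by correlation with a called identifier over the same tumors, their calls are no separate result. In complex tumors, carcinoma minus adenoma was 1.01 for ENSCAFG00000023449, -0.09 for ENSCAFG00000029379, -2.06 for ENSCAFG00000002889 and -0.54 for ENSCAFG00000012236 (limma adjusted p from 0.64 to 0.915).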

How the data were processed

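Poly(A) RNA libraries were sequenced on an Illumina HiSeq instrument. The authors mapped reads to CanFam3.1 with TopHat2 2.0.9 (Bowtie2), with FastQC 0.10.1 and Cufflinks 2.1.1 also named in the submitters' processing notes, and deposited FPKM values from Cufflinks with Ensembl annotation. FPKM is relative to each library's total, so an identifier that takes a large share lowers all others. Only 71.9% of 97046 low values fell on a whole multiple of the smallest step (tolerance 0.1), so reads were not recovered and depth per value is unknown. Tissue came from the labels. Histology, grade, growth pattern, class and cluster came from the study's clinical table, and mapped reads from its sequencing table. Each tumor is from its own dog.

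From these values, log2(FPKM + 1) was fitted with limma 3.58.1 in R 4.3.3 using an intensity trend, for identifiers averaging 0.5 FPKM or more in that fit. Permutation tests used 100000 resamples in Python 3.11.15 with numpy 2.4.6, which can give no p below 1e-05. The fits were tested on simulated data. The dog pairs tumor and normal tissue: deviations of the tissues of 28 dogs from their group means had a mean correlation of 0.224 (-0.179 to 0.696), and 12 dogs correlated best with their own tissue.

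Identifiers named were, per direction, the called one with the largest difference and the one with the smallest adjusted p, at a mean of at least 5 FPKM in the higher group. The rule was applied to grade 3, since the comparison of all carcinomas called 0. Gene lists and cell type markers were not analysed here, because 0 of 43286 genes in the RefSeq table carry these identifiers. A total of 17 identifiers duplicate the values of another, none of them named here. The comparison, members and lists were chosen with earlier results of these data known. The contrasts of grade 3 with grade 1 and of own normal tissue by grade, and the subsets of grade 3 by year, ER, basal class, invasion and libraries, and the spread and variance share without libraries, were chosen after seeing the data.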

Additional observations from a re-analysis of the deposited data

Results flagged for a closer look

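Within each group of 4 to 10 dogs, the highest and lowest values of the 4 named identifiers were compared with the next one. Of 32 such checks 2 stood apart, and chance alone picks out about 1 in 20 groups. In the normal tissue of 5 dogs with a grade 2 carcinoma, the highest level of ENSCAFG00000023449 was 4.30 on the log2(FPKM + 1) scale, against 0.929 in the next dog. In 9 dogs with a grade 3 carcinoma, the lowest tumor minus normal difference of ENSCAFG00000002889 was -14.6 on the log2 scale, against -5.27 in the next dog.

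The carcinoma minus adenoma difference was unlike in grade 3 and grade 1 by the test of the difference itself, which is the contrast of grade 3 with grade 1 carcinoma. By limma it called 432 identifiers. The difference was 2.58 for ENSCAFG00000023449 (adjusted p = 0.00137), 1.03 for ENSCAFG00000029379 (adjusted p = 1.16e-05) and -2.22 for ENSCAFG00000012236 (adjusted p = 2.24e-06). For ENSCAFG00000002889 it was -2.005 with an adjusted p of 0.236. These identifiers were chosen by grade 3 against adenoma, which uses the same grade 3 carcinomas, so their values here are not independent of that choice. The contrast of grade 3 with grade 1 was itself added after the data were seen.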

How the results depend on the processing

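Over 37 alternatives, simple carcinoma against adenoma gave 0 calls in all but 2: 3 within surgery year 2017 and 2 without simple adenoma replicate 5 (0 to 2 when each adenoma was left out). Grade 1 gave 0 in all 20 alternatives run and grade 2 in all 17. The grade 3 count changed by more than 1.5 times in 7 of 35 alternatives: 1001 with a pseudocount of 0.1 (356 higher, 645 lower), 163, 146 and 95 within 2016, 2017 and 2018 (the last from 1 grade 3 tumor, taken to vary like the other groups, with 93 higher and 2 lower), 0 in non-basal tumors, 290 in ER-positive tumors and 379 without lymphatic invasion. A pseudocount of 0.1 gave 982 for solid carcinoma and 1156 for carcinoma against own normal tissue. Adenoma against own normal tissue gave 1 with no filter on low values, 18 by the labels' diagnoses, and 3 with no replicate block. Without the block, carcinoma against own normal tissue gave 556, and the carcinoma against adenoma difference stayed at 0. The variance share passed its permutation test with upper quartile scaling (2.19%, p = 0.032), without the 2 distant libraries (2.18%, p = 0.0324) and without libraries mapped under 88% (2.29%, p = 0.0338). ENSCAFG00000002889 within 2016 was 0.0293, the other way from -5.38, and within 2017 it was -8.77. Fewer tumors enter the subsets, and the cause of these changes was not tested. Leaving out an adenoma moved the named differences within -5.94 to -4.74, -2.87 to -2.62, 3.62 to 3.91 and 1.36 to 1.48 (ENSCAFG00000002889, ENSCAFG00000012236, ENSCAFG00000023449, ENSCAFG00000029379).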
